A study of Saccharomyces cerevisiae with 6 samples.

Results

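The profile described here is the copy number of the budding yeast genome 30 min after release from an arrest in G1. The Orc2 protein of these cells lacked its N-terminal 200 residues (orc2ΔN200). The profile was read in 1-kb bins as the log2 of the S-phase share of counts over the G1 share. Of 11579 nuclear bins with a count in any library, 11290 (97.5%) were kept. A bin was left out if it lay in the rDNA array of chromosome XII, or if its G1 count was under 0.3 times or over 3 times the library median of 270. The low limit removed 285 bins, 168 of them within 30 kb of a chromosome end, and the high limit removed 0. The bins nearest the low limit stood at 0.3 (kept) and 0.296 (left out) of the median, and the highest kept bin at 1.81.

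The study sequenced genomic DNA of the laboratory strain W303-1a under 3 strain labels (WT, Orc2DeltaN200 and Orc2194E), each at 0 min (α-factor arrest in G1) and 30 min after release. Each strain and time had 1 library, so no value here has a replicate, no test across samples was possible, and all intervals are 95% intervals for counting error only. Every strain went through the same protocol. Cells grown in YPG were held with α-factor, then kept in nocodazole-containing YPD, which stopped them in G2/M and depleted orc2-1, held again with α-factor and released, and 0.1% azide was added at harvest to stop elongation. The labels do not say how the full-length or altered Orc2 was supplied, and they name no promoter, clone or number of cultures. Orc2194E is the strain orc2-I194E of the series' design text.

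Orc2 belongs to the origin recognition complex (ORC), the machine that marks replication origins and, with Cdc6 and Cdt1, loads the MCM helicase onto DNA in G1. In S phase the kinases Cdc7-Dbf4 and S-phase CDK convert loaded helicases into forks, and early origins fire before late ones. A stretch that has been copied in more cells gives more reads in S than in G1, so early origins appear as hills and late-copied DNA as valleys. Budding yeast centromeres are known as early-replicating and most chromosome ends as late-replicating in wild-type cells.

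The G1 library of orc2ΔN200 held 3341976 counts and the S library 3288179. Over kept bins they held 3052002 and 2956580, a median of 273 and 261 per bin. A value of 0 is the mean of the kept genome, so a positive value is an excess over that mean and not an absolute copy number. Heights are 21-kb running means of the bin values unless stated, and the counts and intervals beside them come from the summed counts of the same window.

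The label was checked at ORC2 (YBR060C, Crick strand of chromosome II, 360652 to 362514, sacCer3). In the bin 361001 to 362000, inside the gene, the orc2ΔN200 libraries had 449 counts in G1 and 432 in S, against a mean of 264 and 233 per bin in the 20 kb on either side. That is 1.70 times in G1 (1.54 to 1.87) and 1.85 times in S (1.68 to 2.04). In the bin 362001 to 363000, which holds the start of the gene, they had 241 and 218 counts, or 0.912 (0.799 to 1.04) and 0.934 (0.813 to 1.07) times the flanks. At both times an excess lay over the body of ORC2 and not over its first codons. In the other strains the inner bin crossed between the times. Its level was 2.64 in the G1 library of WT but 1.81 in the S library, and for orc2-I194E it was 1.76 and 2.67. Comparisons with those labels are therefore given in the text as labelled and with the S labels exchanged, while the figures show them as labelled. Exchanging the G1 labels instead gives the same pair of profiles with the strain names swapped. Within orc2ΔN200 no single bin jumped between the times: 0 of 11264 bins departed from the mean of their surroundings by more than 5 counting standard errors, the largest departure being 4.71.

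The orc2ΔN200 profile had a broad low floor with a limited number of tall hills on it. Its 21-kb values ran from -0.25 to 0.39, with the 1st percentile at -0.19, the median at -0.021 and the 99th percentile at 0.30. Only 43.4% of bins lay above 0, and the values were skewed upward (skewness 0.672). The profile labelled WT was skewed the other way (-0.542), with its 1st percentile at -0.40 and its 99th at 0.26 (-0.20 and 0.32 after exchange of the S labels). The orc2-I194E profile was skewed upward (0.867). Exchanging the S labels made the WT skewness 0.818 and that of orc2-I194E -0.537, so the upward skew was shared with the S library labelled orc2-I194E whichever G1 library it was divided by.

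**Figure D1:**
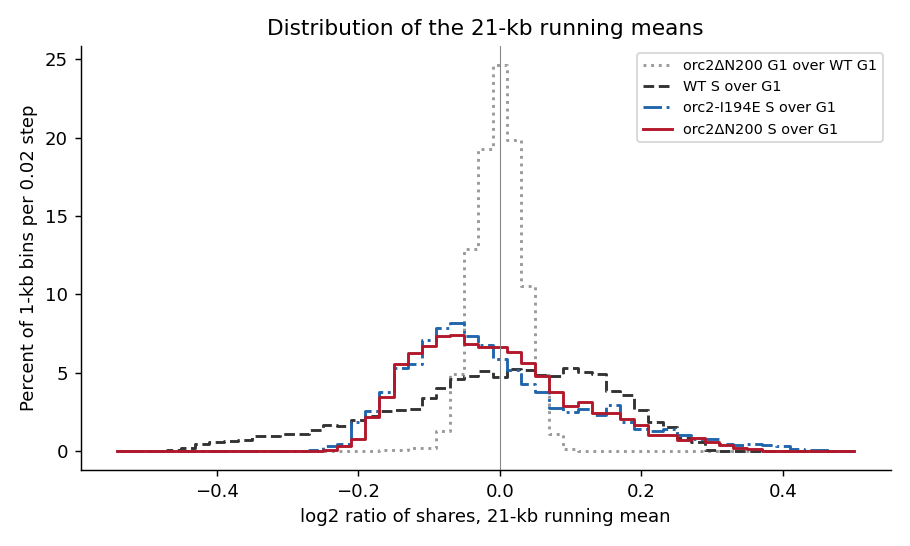
Percent of 1-kb bins (vertical axis) at each 21-kb running mean of the log2 ratio (horizontal axis, steps of 0.02), for S over G1 in the 3 strain labels and for a ratio of 2 G1 libraries. The orc2ΔN200 curve has a long right side (99th percentile 0.30) and a short left side (1st percentile -0.19), and the G1 ratio is much narrower.

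The relief was larger than in ratios of G1 libraries, which hold no planned replication. The SD of the 21-kb values was 0.113 in orc2ΔN200, against 0.0327 for its G1 library over that of WT and 0.0406 over that of orc2-I194E. For single bins the SD was 0.176, of which counting alone gives 0.127, leaving 0.121 beyond counting. Bins 10 kb apart correlated at 0.36, bins 20 kb apart at 0.30 and bins 40 kb apart at 0.14, and bins 60 kb apart at 0.0092. In the ratio of G1 libraries orc2ΔN200 over WT the value at 10 kb was -0.026. In the profile labelled WT the correlation fell faster, from 0.50 at 10 kb to 0.045 at 40 kb, but after exchange it went from 0.39 to 0.13. These correlations are across neighbouring bins of the same libraries and describe the width of the features.

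Local maxima of the 21-kb profile with a prominence of at least 0.2 were counted as hills, and minima by the same limit as valleys. There were 33 hills and 41 valleys. The same search found 0 hills and 1 valley in the G1 ratio of orc2ΔN200 over WT, and 0 and 4 in that over orc2-I194E. A low G1 count raises a height, being its denominator. The G1 ratio over WT lay below 0 at 24 of 33 hills (median -0.017) and above at 28 of 41 valleys (0.017). That over orc2-I194E lay below 0 at 24 hills (-0.019) and above at 33 valleys (0.025). Over all bins 49.7% and 50.5% lay above 0. The hills had a median height of 0.16 (0.0076 to 0.35), a median width of 69.2 kb at mid-height and a median distance of 212 kb to the next hill on the chromosome. The WT profile had 71 hills, 132 kb apart, and the orc2-I194E profile 29, 236.5 kb apart. After the exchange of S labels WT had 31, 220.5 kb apart, and orc2-I194E 66, 134 kb apart. A summit near a chromosome end could not reach the prominence where the profile stayed high up to the end, and no hill lay within 30 kb of one.

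**Figure D2:**
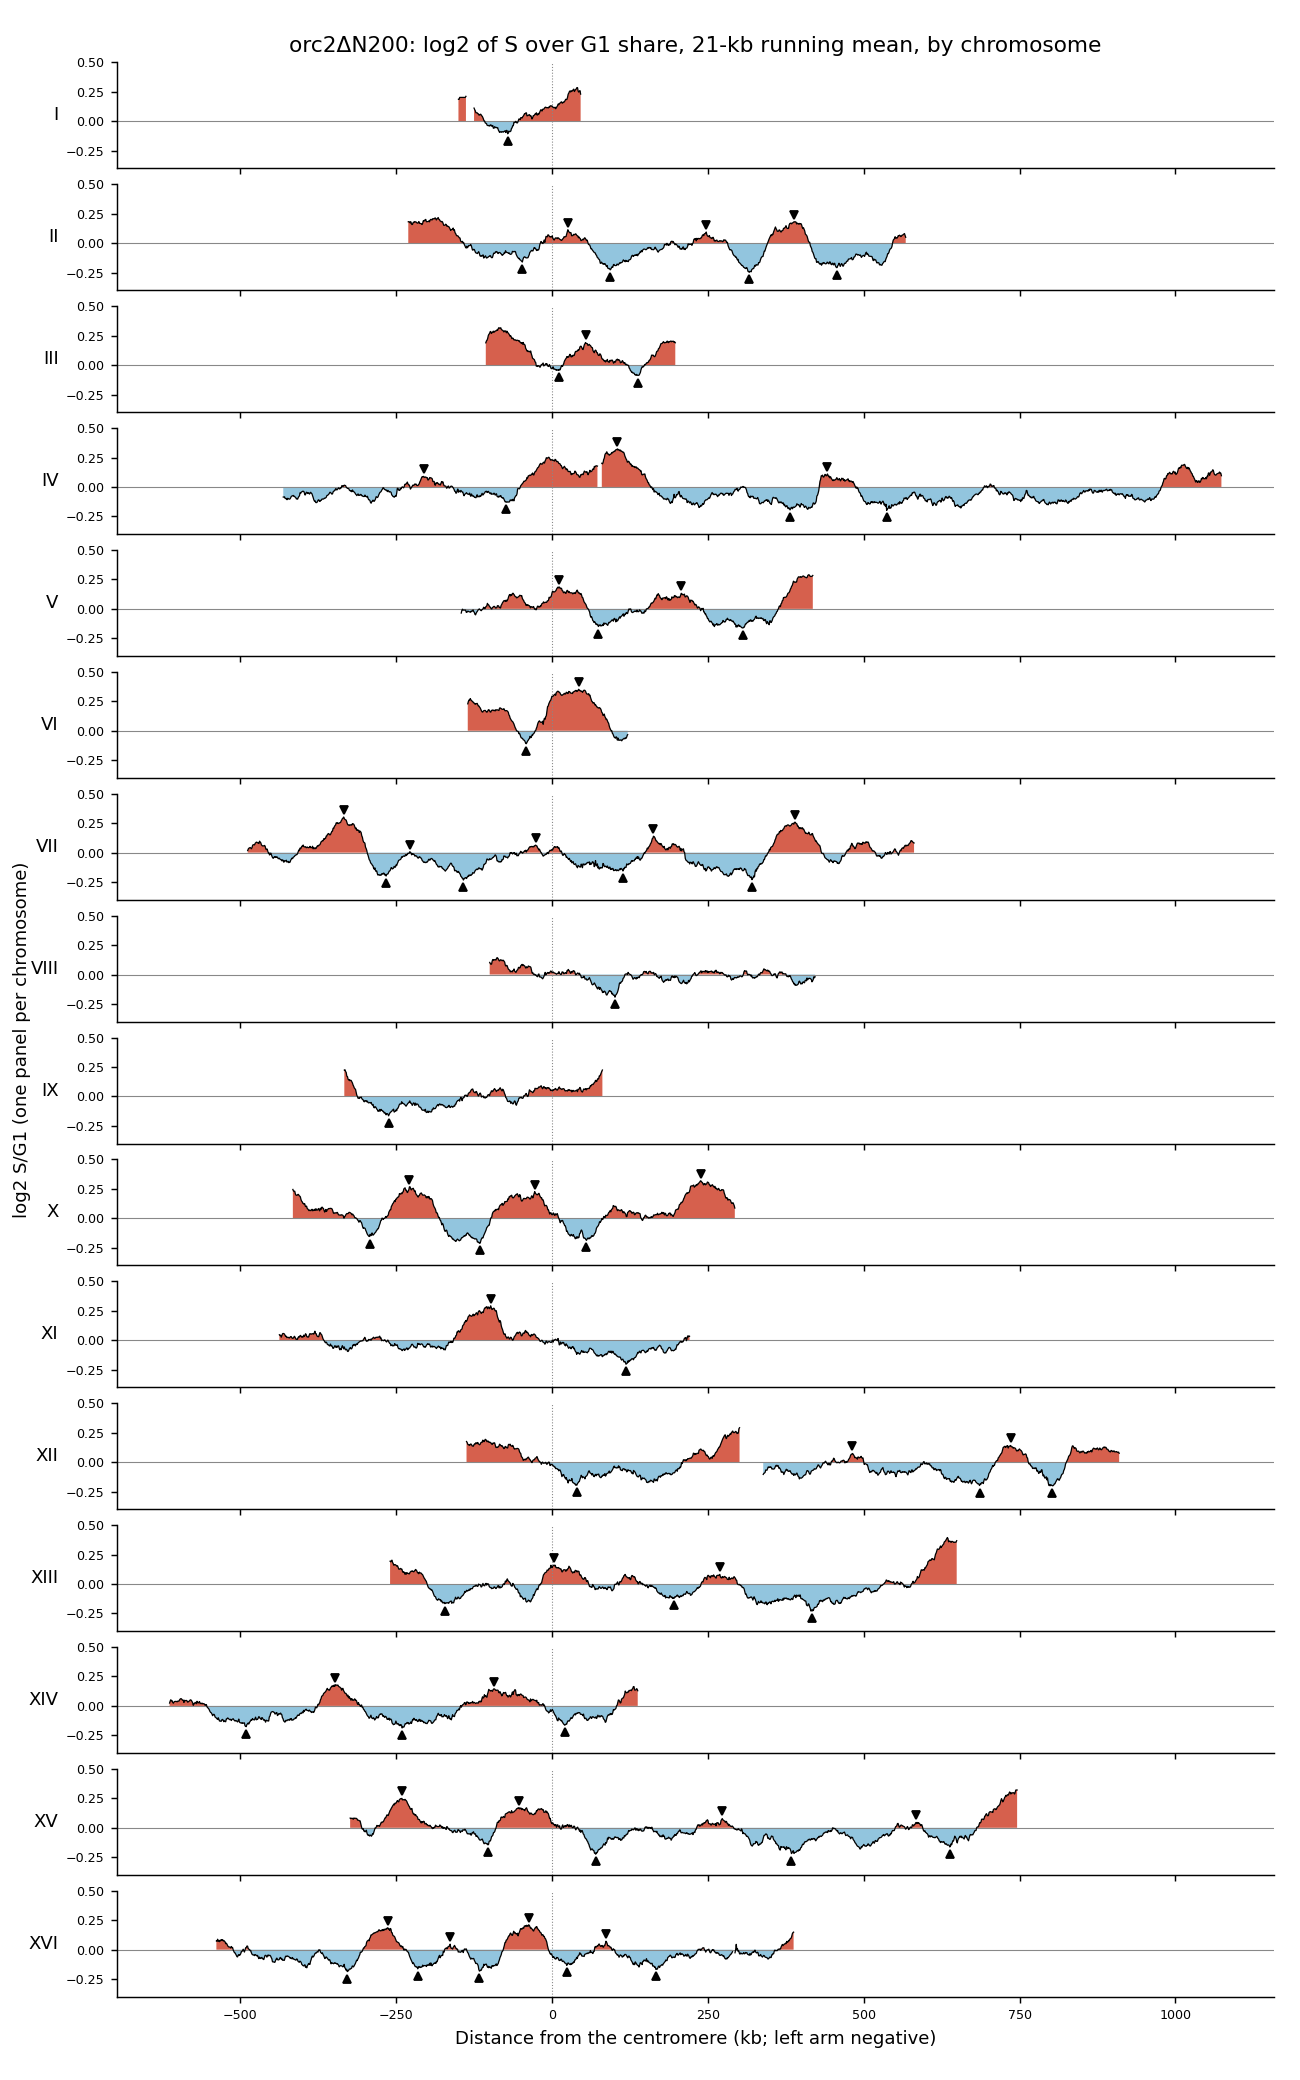
The orc2ΔN200 profile (log2 of S over G1 share, 21-kb running mean) along each of the 16 chromosomes, with distance from the centromere in kb on the horizontal axis. Red areas lie above the genome mean and blue areas below, downward triangles mark the 33 hills and upward triangles the 41 valleys, and the gap on chromosome XII is the rDNA array. Chromosome VI is mostly above the mean, and the arms of the long chromosomes are mostly below it with isolated hills.

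The highest hill stood on the right arm of chromosome VI at 191001, next to the tRNA gene YNCF0009C. Its 21-kb window had 6100 counts in G1 and 7561 in S, a height of 0.35 (0.31 to 0.40), or 1.28-fold. It was 90.7 kb wide and formed the top of the longest high stretch of the genome. The next was on chromosome IV at 554001, over VMS1, which releases nascent chains from stalled ribosomes. Its counts were 5366 in G1 and 6488 in S, a height of 0.32 (0.27 to 0.37). DBF4, which encodes the regulatory subunit of the Cdc7 kinase that fires origins, lay in the same hill with 0.31. The third was on chromosome X at 674001, over SGM1, with counts of 5753 and 6968 and a height of 0.32 (0.27 to 0.37).

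On chromosome VII the highest summit was at 162001, over ATG1, the kinase that starts autophagy. It rose from 5478 counts in G1 to 6565 in S, a height of 0.30 (0.26 to 0.36). On chromosome XI the only hill of the whole chromosome lay at 341001, over SFK1, with 5517 and 6511 counts and a height of 0.29 (0.23 to 0.34). PRI2, a primase subunit gene, lay on its flank with 0.17. On chromosome X a further hill at 207001, next to the mitochondrial fission gene MDV1, reached 0.27 (0.21 to 0.33) on 15 kept bins with 3978 and 4646 counts. XKS1, the xylulokinase gene, carried the hill at 886001 on chromosome VII, with 0.26 (0.20 to 0.31).

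The remaining 8 of the 15 highest hills had heights between 0.18 and 0.25. TRM11, a tRNA methyltransferase gene on chromosome XV at 85001, had 0.25, and CCT3, a subunit gene of the CCT chaperonin on chromosome X at 408001, had 0.23. CTF19, a kinetochore gene on chromosome XVI at 518001, had 0.21. The hill at 168001 on chromosome III lay next to the tRNA gene YNCC0010C with 0.19, and that at 292001 on chromosome XVI lay next to SPP1, a subunit gene of the histone H3 methyltransferase complex, also with 0.19. NUG1, a gene for export of the large ribosomal subunit, carried the hill at 163001 on chromosome V with 0.19. MCM7, a subunit gene of the loaded helicase itself, lay at the summit on chromosome II at 626001, where the counts went from 6057 in G1 to 6678 in S and the height was 0.18 (0.14 to 0.24). DUG3, a glutathione degradation gene on chromosome XIV at 281001, closed the group with 0.18. All 15 windows had more counts in S than in G1 although the S library was smaller, and all 15 intervals lay above 0. The windows were chosen as the highest of this same ratio, so this is no finding by itself.

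**Figure D3:**
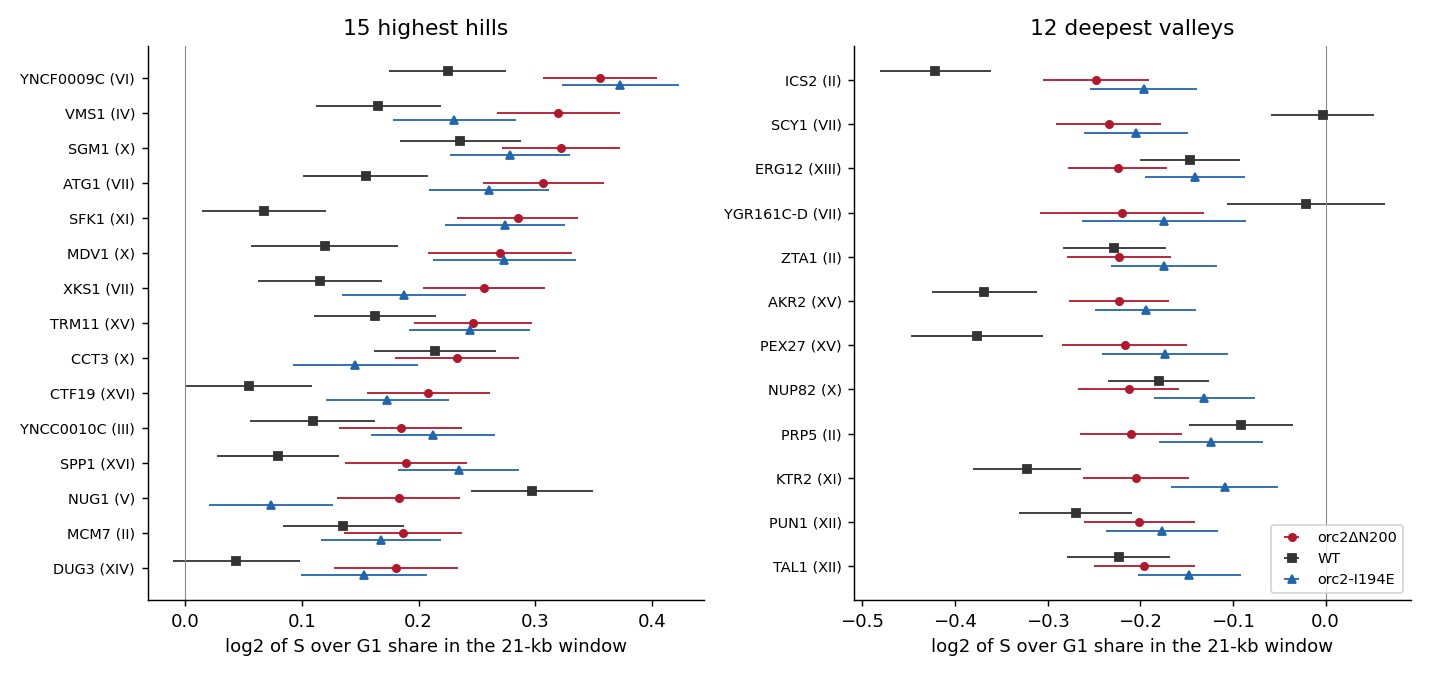
The 15 highest hills (left) and 12 deepest valleys (right) of the orc2ΔN200 profile, by the gene at the summit and its chromosome, with the log2 of S over G1 share in the 21-kb window on the horizontal axis. Bars are 95% counting intervals; red circles are orc2ΔN200, black squares WT and blue triangles orc2-I194E, as labelled. Places were chosen on the orc2ΔN200 profile, whose summits run from 0.18 to 0.36 on this scale of summed counts.

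The places of the hills were also set beside those of the other profiles. Within 10 kb of an orc2-I194E hill lay 17 of the 33 (51.5%), which were 58.6% of the orc2-I194E hills, where 5.18% of all bins lie that close. Within 10 kb of a WT hill lay 18 (54.5%), which were 25.4% of the WT hills, beside 12.4% of all bins. Exchanging the S labels gave 18 for orc2-I194E (27.3% of its hills, beside 11.5% of bins) and 14 (42.4%) for WT, which were 45.2% of its hills, beside 5.49% of bins. In height, 28 of the 33 had counting intervals that overlapped those of orc2-I194E and 5 stood above them, as 2.17% of all 21-kb windows do. The interval overlapped that of WT at 20, stood above it at 11 and below it at 2, beside 21.1% of windows above and 20.3% below. After exchange it stood above WT at 7 and below at 0 (1.81% and 2.56% of windows), and above orc2-I194E at 7 and below at 1 (21% and 20.4%). As the places were chosen for being high in orc2ΔN200, its excess there is no finding by itself. The median height at these hills was 0.16 in orc2ΔN200, 0.13 labelled WT and 0.13 labelled orc2-I194E, and with the S labels exchanged 0.10 and 0.12.

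Heights at single hills differed between labels in either direction. At SFK1 the height of 0.29 in orc2ΔN200 stood beside 0.28 in orc2-I194E and 0.062 in WT, and at CTF19 0.21 stood beside 0.17 and 0.050. At NUG1, near the centromere of chromosome V, the order was the opposite, with 0.19 in orc2ΔN200, 0.072 in orc2-I194E and 0.30 in WT. For WT, exchanging the S labels gave 0.27 at SFK1, 0.19 at CTF19 and 0.15 at NUG1, and for orc2-I194E 0.068, 0.036 and 0.22. No strain pair has a replicate, so none of these differences was tested.

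Flanks of the hills were steepest on chromosome VII, where the profile dropped from 0.18 at PMR1 (189001) to -0.13 at AMS1 (210001) over 21 kb. On chromosome II it went from 0.13 at DUR12 (641001) to -0.16 at YBR219C (662001). On chromosome VI it climbed from 0.055 at MSH4 (134001) to 0.32 at SAD1 (155001), across the centromere. Over all pairs of bins 21 kb apart the median size of the step was 0.052 and the largest 0.31. The ratio of G1 libraries orc2ΔN200 over WT had 0.031 and 0.18.

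Stretches of at least 10 kb with a 21-kb value of 0.15 or more were counted as high. There were 33, covering 1227 kb (10.2% of the nuclear bins outside the rDNA) and 657 genes, and 10.9% of kept bins reached this value. The G1 ratio of orc2ΔN200 over WT had 0 such stretches, and that over orc2-I194E had 1 of 13 kb. The longest ran for 90 kb on chromosome VI, from 140001 to 230000, across the centromere and most of the right arm, between YFL002W-A and RSC8. It held 55 genes, among them CDC14, the mitotic exit phosphatase, and SMC2, a condensin subunit. Its counts were 23465 in G1 and 27967 in S, a log2 ratio of 0.30 (0.27 to 0.32). The ratio was 0.21 in WT and 0.32 in orc2-I194E, and 0.28 and 0.25 after exchange of their S labels.

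The next longest were of 76 kb around SGM1 on chromosome X (647001 to 723000, DMO1 to DAL5) with 0.25 (0.23 to 0.28), and of 66 kb on the left arm of chromosome VI (13001 to 79000, THI5 to CAK1) with 0.20 (0.17 to 0.23). The latter stretch stood at -0.013 in WT and 0.37 in orc2-I194E, and the exchange turned these into 0.33 and 0.027. On the left arm of chromosome III a stretch of 64 kb (8001 to 72000, VBA3 to RNQ1) had 0.25 (0.22 to 0.28). It held the silent mating-type genes HMLALPHA1 and HMLALPHA2, and its top of 0.32 was next to KAR4, a regulator of nuclear fusion genes. On the left arm of chromosome II 62 kb (7001 to 69000, PAU9 to CDC27) had 0.18 (0.15 to 0.22), with its top over TEL1, a checkpoint kinase gene with a role in telomere length. Of the 33 high stretches 12 came within 30 kb of a chromosome end and 6 within 20 kb of a centromere. These zones held 579 and 613 of the 11290 kept bins. A long stretch reaches a zone more often than a single bin does, and no expected number was computed.

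Valleys were broad and lay within a narrow range of depth. The 41 valleys had a median of -0.18, with quartiles of -0.20 and -0.16, and a median width of 83.2 kb. The WT profile had 71 valleys with a median of -0.29 and a width of 39.3 kb. The orc2-I194E profile had 40, with -0.19 and 88.4 kb. WT had 43 valleys after the exchange of S labels, with a median of -0.18, and orc2-I194E 70 with -0.31. At all 41 orc2ΔN200 valleys the counting intervals of orc2ΔN200 and orc2-I194E overlapped, and orc2-I194E also lay below 0, where 39.9% of its bins over the genome lie above 0. Of all 21-kb windows 3.47% lay below orc2-I194E by interval. Labelled WT, 34 of the 41 lay below 0 and 7 above, beside 52.2% of its bins above 0. The intervals of orc2ΔN200 stood above those of WT at 12, below at 13 and overlapped at 16, beside 21.1% of windows above and 20.3% below. The exchange of S labels swapped this pattern. WT then lay below 0 at all 41 and orc2-I194E at 30, beside 59.9% and 46.9% of all 21-kb windows. The intervals stood above WT at 1 and below at 3 (1.81% and 2.56% of windows). They stood above orc2-I194E at 10 and below at 12 (21% and 20.4%). As the valleys were chosen for being low in orc2ΔN200, its depth there is no finding by itself.

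The deepest valley lay on chromosome II at 554001, next to ICS2. Its window went from 5518 counts in G1 to 4503 in S, a height of -0.25 (-0.30 to -0.19), where WT had -0.42 as labelled and -0.22 after exchange, and orc2-I194E -0.20 and -0.41. On chromosome VII the valley at 354001 over SCY1 went from 5616 to 4626 counts, a height of -0.23 (-0.29 to -0.18). Here WT stood at -0.00084 and orc2-I194E at -0.19, and with the S labels exchanged they had -0.13 and -0.069. The valley at 685001 on chromosome XIII, over ERG12, the mevalonate kinase gene, had 6205 and 5145 counts and -0.23 (-0.28 to -0.17). That at 817001 on chromosome VII, next to YGR161C-D, had -0.23 on only 10 kept bins (2288 and 1904 counts).

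The other 8 of the 12 deepest valleys had heights from -0.23 to -0.20. They lay over ZTA1 (II, 331001), AKR2 (XV, 396001), the peroxisome gene PEX27 (XV, 710001), the nucleoporin gene NUP82 (X, 320001), PRP5, a splicing helicase gene (II, 694001), KTR2, a mannosyltransferase gene (XI, 558001), PUN1 (XII, 953001) and TAL1, the transaldolase gene (XII, 836001). Chromosome II held 3 of the 12, the most of any chromosome. The 12 intervals all lay below 0, but the valleys were chosen as the deepest of this same ratio.

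Low stretches, of at least 10 kb at -0.15 or less, numbered 28 and covered 600 kb with 324 genes, and 6.54% of kept bins reached this value. The longest had 51 kb, on chromosome II from 662001 to 713000 (YBR219C to RRT2), where counts went from 14043 in G1 to 11969 in S, a ratio of -0.18 (-0.22 to -0.15). A stretch of 38 kb on chromosome XV (689001 to 727000, IES4 to GEP3) had -0.19 (-0.24 to -0.15). On chromosome XII 37 kb (807001 to 844000, SPO77 to YLR358C) had -0.17, and on chromosome II 37 kb (315001 to 352000, ATP3 to MNC1) had -0.18 and 35 kb (537001 to 572000, RTC2 to POP7) had -0.21. None of the 28 came within 30 kb of an end (579 of the 11290 kept bins) or 20 kb of a centromere (613). They lay on 10 chromosomes, and the 6 chromosomes without one (I, III, V, VI, VIII and IX) were the 6 shortest.

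Whole chromosomes differed accordingly. Chromosome VI gained most, from 68468 counts in G1 to 73936 in S, a log2 ratio of 0.16 (0.14 to 0.17), and 57.6% of it lay in high stretches. Chromosome III followed with 0.10 (0.087 to 0.11), then I with 0.068, X with 0.064 and V with 0.026. Counting intervals lay above 0 for these 5 chromosomes and below 0 for 8, the lowest being XIV at -0.031 (-0.040 to -0.022). The others, VIII, IX and XI, had intervals that held 0. Chromosome VIII was the flattest, with an SD of 0.0581 of its 21-kb values, no hill and no high stretch, and IX also had neither. Over the 16 chromosomes the ratio and the length correlated at -0.68 (Pearson) and -0.69 (Spearman), and at -0.63 and -0.58 without the outer 30 kb. These are descriptions over chromosomes of the same pair of libraries. WT had 0.086 on chromosome VI, 0.079 on III and 0.13 on I, and orc2-I194E had 0.24, 0.12 and 0.095. After exchange of the S labels WT had 0.21, 0.067 and 0.043 and orc2-I194E 0.12, 0.14 and 0.18, so the order of these strains turned on VI and I and not on III.

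Chromosome ends stood above the genome mean. Summed over the outer 30 kb of all chromosomes (579 kept bins), the counts went from 157757 in G1 to 166474 in S, a log2 ratio of 0.12 (0.11 to 0.13). This ratio was 0.037 (0.027 to 0.048) labelled WT and 0.16 labelled orc2-I194E, and with the S labels exchanged 0.14 and 0.059. The G1 library of orc2ΔN200 differed from that of WT by 0.0023 and from that of orc2-I194E by 0.024 over these bins. The excess was level through the outer 30 kb, with 0.11 in the outermost 10 kb, 0.12 from 10 to 20 kb and 0.13 from 20 to 30 kb. It then declined to 0.089 from 30 to 40 kb, 0.065 from 40 to 60 kb and 0.019 from 80 to 100 kb. Of the 28 ends with at least 10 kept bins, 24 lay above 0, where 43.4% of all bins do, and the intervals excluded 0 at 21 above and 2 below, beside 26.5% and 38.1% of all 21-kb windows.

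The right end of chromosome XIII was highest of all, with 6390 counts in G1 and 7997 in S and a ratio of 0.37 (0.32 to 0.42). The highest 21-kb value of the genome, 0.39, lay at 902001 there, next to PRE5, a proteasome subunit gene. The right end of chromosome XV had 0.32 (0.25 to 0.39) on 12 kept bins. The right end of V had 0.27 and the left ends of VI, III and X had 0.25, 0.25 and 0.24, the last on 9 kept bins. The lowest ends were IV left at -0.084 (-0.16 to -0.0094), VI right at -0.054 (-0.097 to -0.010), V left at -0.029 and XI right at -0.0086, followed by XI left at 0.036 and II right at 0.045. Ends of one chromosome thus could differ, as VI left and VI right did. Against WT the interval of orc2ΔN200 was higher at 9 of the 28 ends and lower at 1, beside 21.1% and 20.3% of all 21-kb windows. Against orc2-I194E it was higher at 0 and lower at 2, beside 2.17% and 3.47%. This depended on the S labels. After exchange of the S labels the interval was higher than WT at 0 and lower at 0 (1.81% and 2.56% of windows). Against orc2-I194E it was then higher at 9 and lower at 1 (21% and 20.4%). By value orc2ΔN200 was above WT at 22 of the 28 as labelled and at 12 after exchange, beside 5451 and 5687 of all 11270 windows. With the G1 labels exchanged instead, WT had 0.059 over all ends, below the 0.12 of orc2ΔN200.

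**Figure D4:**
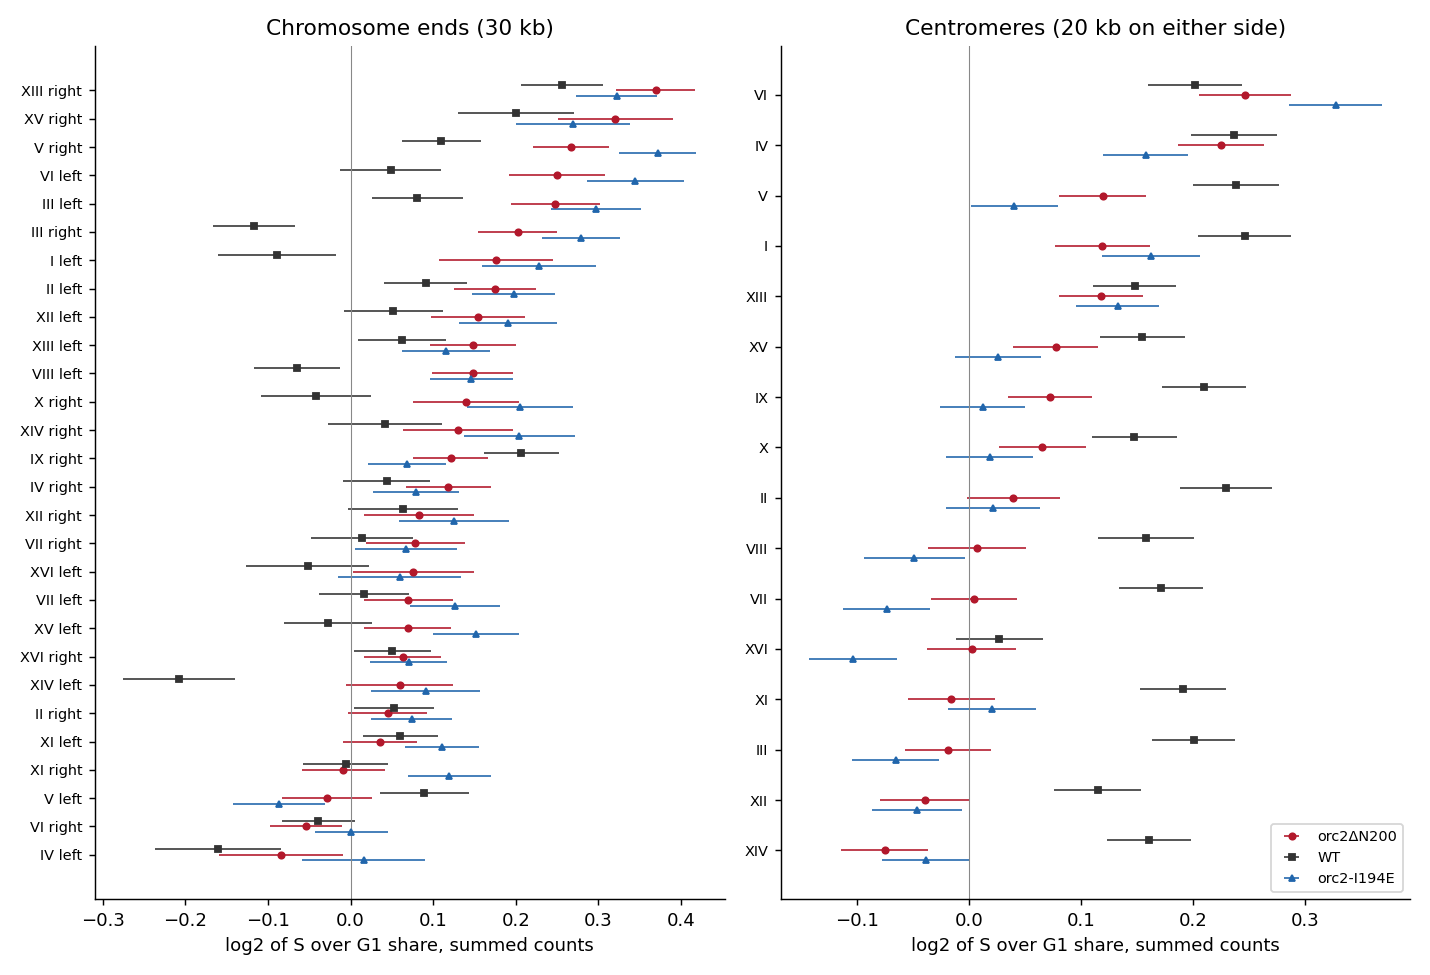
Log2 of S over G1 share from summed counts (horizontal axis) within 30 kb of each chromosome end with at least 10 kept bins (left) and within 20 kb of each centromere (right), ordered by orc2ΔN200. Bars are 95% counting intervals; red circles are orc2ΔN200, black squares WT and blue triangles orc2-I194E, as labelled. In orc2ΔN200 24 of 28 ends lie above 0, and centromeres spread from -0.075 to 0.25.

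Centromeres were uneven. Summed within 20 kb of them (613 kept bins), the counts went from 165484 in G1 to 167006 in S, a ratio of 0.059 (0.049 to 0.069), against 0.18 (0.17 to 0.19) labelled WT and 0.033 labelled orc2-I194E. The exchange of S labels made these 0.043 and 0.17. Of 16 centromeres 12 lay above 0, where 43.4% of all bins do. Of their intervals 8 lay above 0 and 2 below, beside 26.5% and 38.1% of all 21-kb windows. Chromosome VI was highest with 0.25 (0.21 to 0.29), then IV with 0.22 (0.19 to 0.26), V with 0.12 and I with 0.12. The lowest were XIV at -0.075 (-0.11 to -0.036), XII at -0.040, III at -0.019 and XI at -0.016. On chromosome XIV counts fell from 11097 in G1 to 10203 in S, beside a WT ratio of 0.16 and an orc2-I194E ratio of -0.039, which the exchange turned into -0.028 and 0.15. The orc2ΔN200 interval lay below that of WT at 12 centromeres and above it at 0, beside 20.3% and 21.1% of all 21-kb windows. After exchange it lay below WT at 0 and above at 1 (2.56% and 1.81% of windows). By value orc2ΔN200 was then above WT at 12 of 16, beside 5687 of all 11270 windows. With the G1 labels exchanged instead, the summed WT ratio was 0.17. The direction by value against WT thus turned with an exchange of S labels and not with one of G1 labels. Against orc2-I194E the interval was above at 3 as labelled (2.17% of windows), and below at 10 after exchange (20.4%). As labelled, VI and IV were among those whose intervals overlapped that of WT (0.20 and 0.24).

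The excess at centromeres was highest within 5 kb, changed little from 5 to 60 kb and was lowest from 60 to 80 kb. It was 0.075 (0.056 to 0.094) within 5 kb, 0.046 from 5 to 10 kb and 0.057 from 10 to 20 kb. Farther out it was 0.042 from 20 to 30 kb, 0.041 from 30 to 40 kb and 0.043 (0.033 to 0.053) from 40 to 60 kb. From 60 to 80 kb it was 0.020 (0.0094 to 0.030). Within 5 kb the G1 library of orc2ΔN200 was itself low, at -0.020 over that of WT and -0.034 over that of orc2-I194E. WT as labelled had 0.18 within 5 kb and 0.049 from 40 to 60 kb, and after exchange 0.041 and 0.021.

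Genes of the replication machinery lay on hills as well as in valleys. Over 6264 genes with a value the median height was -0.022, with 17.9% at 0.1 or more and 22.5% at -0.1 or less. Of the 14 licensing genes (ORC1 to ORC6, CDC6, TAH11, which encodes Cdt1, and MCM2 to MCM7) 2 reached 0.1 (MCM7 with 0.18 and MCM3 with 0.13) and 2 reached -0.1 (ORC2 with -0.14 and ORC5 with -0.11). Their median was -0.015. Of 13 firing genes 3 reached 0.1, namely DBF4 with 0.31, PSF1, a GINS subunit gene, with 0.15, and CDC7, the partner kinase of Dbf4, with 0.14. PSF2, another GINS subunit gene, was the 1 at -0.1 or less, with -0.16, and the median was -0.046.

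Of 23 fork genes (polymerases, clamp, clamp loader, RPA and fork protection) 3 reached 0.1: MRC1, the S-phase checkpoint mediator gene in the high left arm of chromosome III, with 0.29, PRI2 with 0.17 and RFA1, the large RPA subunit gene, with 0.11. TOF1, POL1 and POL2 reached -0.1, with -0.14, -0.12 and -0.12. The median was -0.014. The shares of the licensing, firing and fork lists at 0.1 or more were 14.3%, 23.1% and 13.0%, beside 17.9% of all genes.

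**Figure D5:**
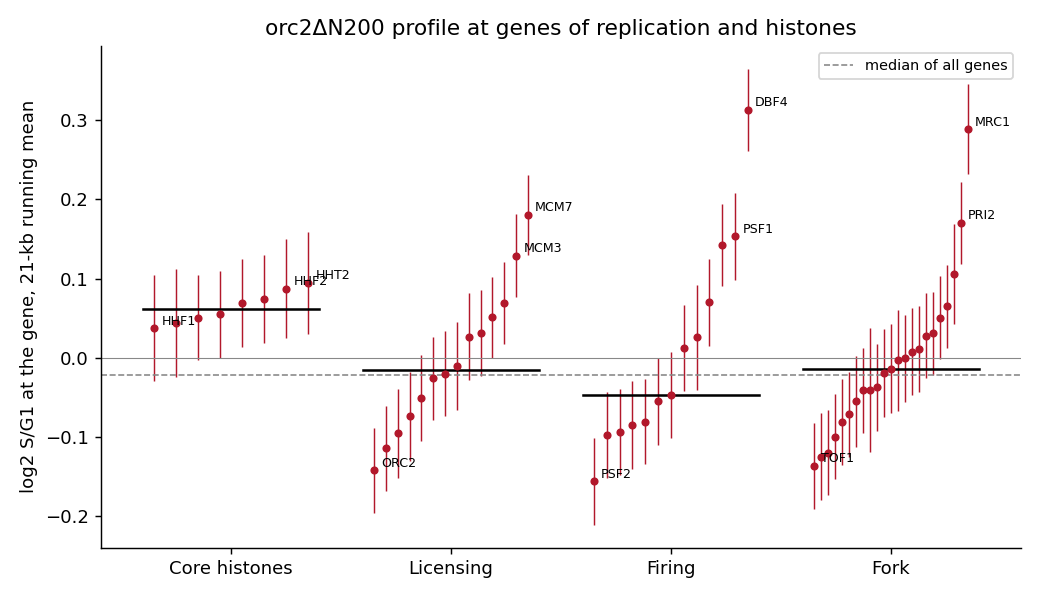
Height of the orc2ΔN200 profile (log2 S/G1, 21-kb running mean, vertical axis) at each gene of 4 lists, in ascending order within a list, with 95% counting intervals, the list median as a black line and the median of all genes as a dashed line. The 8 core histone genes lie between 0.037 and 0.094, and the replication lists run from -0.16 (PSF2) to 0.31 (DBF4).

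The 8 core histone genes sit as divergent pairs at 4 loci and all had values slightly above the mean, although the intervals of the 4 on chromosome II held 0. HHT2 and HHF2 on chromosome XIV had 0.094 and 0.087, HTB1 and HTA1 on chromosome IV had 0.074 and 0.069, HTA2 and HTB2 on chromosome II had 0.055 and 0.051, and HHT1 and HHF1, also on chromosome II, had 0.044 and 0.037. The genes of a pair share a window, so these are 4 places. None reached 0.1. The median of 0.062 stood beside 0.19 in WT and 0.015 in orc2-I194E as labelled, and beside 0.035 and 0.17 after exchange of the S labels. It was thus below WT by the labels and above it by the exchange of S labels. With the G1 labels exchanged instead, WT had the 0.17, and the median stayed below it.

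Origins themselves could only be approached through the genes beside them. TRP1, which adjoins the well-studied early origin ARS1 on chromosome IV, had 5255 counts in G1 and 5815 in S and a height of 0.20 (0.14 to 0.25), beside 0.24 in WT and 0.17 in orc2-I194E (0.16 and 0.24 after exchange). MSH4, whose coding region holds ARS605 on chromosome VI, had 0.088 (0.020 to 0.15), beside 0.25 and 0.18 (0.20 and 0.23 after exchange). HHF1, next to the H4 ARS on chromosome II, had 0.037 (-0.030 to 0.10), beside 0.22 and -0.0100, which crossed to -0.011 and 0.22 after exchange. HO, the mating-type switching endonuclease gene on chromosome IV, had -0.043 (-0.10 to 0.0096), beside -0.056 and -0.15 (-0.14 and -0.067 after exchange). Only TRP1 of the 4 reached 0.1. The 275 nuclear tRNA genes had a median of -0.0087, with 24.4% at 0.1 or more and 20.4% at -0.1 or less.

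As a whole the 21-kb profile of orc2ΔN200 correlated with that labelled orc2-I194E at 0.88 over 11260 bins and with that labelled WT at 0.56 over 11264. With the S labels of those strains exchanged the correlations were 0.60 and 0.89. The higher correlation thus went with the S library labelled orc2-I194E, over either G1 library. The values are given as descriptions of libraries, since neighbouring bins are not independent and no profile has a replicate.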

How the data were processed

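The deposited files give whole-number counts per 1-kb bin, without scaling. The build is sacCer3, and the tools listed are R 4.3.0, bedtools 2.31.0, SAMtools 1.18, Bowtie2 2.5.3 and Picard 2.27.5, per the submitters' processing notes. What each tool did, which filters applied, how duplicates were handled and whether a count is a read or a fragment are not given in the sources used here.

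Ratios were computed with SciPy 1.17.1, pandas 2.3.3 and numpy 2.4.6 under Python 3.11.15, and figures drawn with matplotlib 3.10.9. A share is a count over the total of kept bins. Running means needed 10 kept bins in 21 and were cut at chromosome ends. Intervals are exact conditional (Clopper-Pearson) intervals at 95%, and molecules amplified by PCR are not independent. Gene positions are those of RefSeq's R64, on which sacCer3 is built, and centromeres were placed between the innermost genes of the arms. That table names no origins, so origins were not analysed here, and no sequences were used. Hill calling and the intervals were also run on simulated counts, with outcomes not given here.

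Named were the 15 highest hills, 12 deepest valleys, 6 highest and lowest ends, 4 highest and lowest centromeres, 5 longest stretches, ORC2 and the fixed lists. Any other gene was picked once its value was known. The profile, lists and settings were chosen with earlier results of these data known.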

Additional observations from a re-analysis of the deposited data

Results flagged for a closer look

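Some places lay on opposite sides of the genome mean in orc2ΔN200 and another strain label, beyond the counting interval of each. None of these differences was tested, since each ratio rests on 1 library a side. Against WT, the centromere of chromosome XII had -0.040 in orc2ΔN200 and 0.11 in WT, and that of chromosome XIV had -0.075 and 0.16. Exchanging the S labels of WT and orc2-I194E gave WT -0.043 and -0.028 at these centromeres.

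Among genes of the replication lists, SLD3, a firing factor gene on chromosome VII, had -0.080 in orc2ΔN200 and 0.064 in WT, and SLD7, the gene of its partner, on chromosome XV, had -0.085 and 0.19. SLD5, a GINS subunit gene on chromosome IV, had 0.070 and -0.089. After that exchange, the WT values of SLD3, SLD7 and SLD5 were 0.015, -0.080 and 0.0099. Against orc2-I194E, MCM3 on chromosome V had 0.13 in orc2ΔN200 and -0.076 in orc2-I194E, and RFC3, a clamp loader gene on chromosome XIV, had -0.071 and 0.045. After it, orc2-I194E had 0.24 and 0.082 at these genes.

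The stretches left out of the profile also changed in orc2ΔN200. The mitochondrial genome went from 265792 counts in G1 to 304181 in S, a ratio of 0.24 (0.23 to 0.25) against the kept nuclear bins, where WT had -0.23 and orc2-I194E 0.033 as labelled, and -0.20 and -0.0013 after exchange of the S labels. The bins of the rDNA array with counts went from 18661 to 21717, a ratio of 0.26 (0.24 to 0.29), where WT had -0.067 and orc2-I194E 0.30 as labelled. After exchange WT had 0.24 (0.21 to 0.26) and orc2-I194E -0.0011, and the intervals of orc2ΔN200 and WT then overlapped.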

How the results depend on the processing

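With 1 library a side, counts limit a 21-kb height to about 0.055 on either side. The SD of 0.113 became 0.118 with a running mean of 11 kb, 0.109 with 31 kb, 0.115 without the filter on G1, 0.114 over the 3 pooled G1 libraries and 0.109 without the outer 30 kb. A prominence of 0.3 left 19 hills and 23 valleys. Departures of 0.1 and 0.2 gave 65 and 2 low stretches, and a departure of 0.2 gave 17 high ones. Centring on the median moved ends to 0.13 and centromeres to 0.070. Within 15 kb only 7 ends had 10 kept bins, 6 of them above 0. The 15 named hills stayed above 0 under 7 alternatives, from 0.15 to 0.37, but they were chosen as the highest in these same libraries. With the 11-kb mean the heights at YNCF0009C and SGM1 fell to 0.29 and 0.27, while VMS1 had 0.34. The order of the highest hills thus depended on the window. Exchanges of labels between WT and orc2-I194E, chosen after seeing the data, turned the sign of none of their median heights at the hills and valleys. Libraries could not be left out in turn, since that leaves no ratio. No paired analysis was possible because each group has 1 library.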
